A study of Mus musculus with 6 samples.

Results

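Group 2 innate lymphoid cells (ILC2) from the thymus were compared with ILC2 taken directly from mesenteric lymph nodes (MLN), the nodes that drain the gut, across all genes measured. The comparison uses 4 of the 6 libraries of the series, chosen by their labels: 2 from thymus and 2 from fresh MLN. The remaining 2 libraries were of MLN cells kept for 1 week in culture with 3 cytokines (IL-33, IL-25 and IL-7, each at 10 ng/ml). They entered the low-count filter, the scaling of the libraries and the estimate of the spread between libraries, but not the difference itself. All mice were homozygous for a transgene (Id1tg/tg) that expresses Id1, an inhibitor of E proteins (transcription factors of lymphocyte development). Its promoter is the proximal lck promoter, which is active in developing T cells. The line was made on FVB/N and then crossed to C57BL/J for 10 generations or more, and the ages of the mice are not given in the labels. Per the labels, T cell development is completely blocked in these animals and ILC2 are overproduced in the thymus, so both groups come from a host without normal thymocytes and neither is a wild-type organ. The sort took cells without lineage markers and with Thy1 and ST2 on the surface, about 300000 for each library. Whether separate animals gave the 2 libraries of an organ is not stated in the labels. The p-values below therefore measure only the spread between these libraries, which may be technical.

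ILC2 carry no antigen receptor of their own and act on signals from the tissue. They respond to the alarmins IL-33, IL-25 and TSLP, to lipids and to neuropeptides, and they release type 2 cytokines, growth factors and peptides. In adults they are mostly resident in tissues, and the receptors they carry differ with the organ. Surface receptors, secreted factors, metabolic enzymes and transcription factors are described in turn, with genes of the cell cycle, the interferon response and early thymocytes set apart.

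Totals were 37799166 and 35280692 counts in thymus and 37223939 and 36103469 in fresh MLN. Levels are CPM, counts scaled to a common library total after TMM factors, and these factors correct for a few genes taking a large share of the reads. The genes of ILC2 and of the sort that are named next were present in all 4 libraries. Ptgdr2, a further ILC2 marker, had too few counts to test, at 3 and 2 in thymus and 1 and 2 in MLN. Gata3, the transcription factor ILC2 depend on, stood at 648 and 673 CPM in thymus and 622 and 599 in MLN, and Il1rl1, which encodes ST2, at 1457 and 1444 against 1885 and 1818. Thy1, the other sort marker, was at 726 and 736 against 371 and 300 CPM. Il17rb, the IL-25 receptor chain, was at 1656 and 1649 CPM in thymus and 2896 and 2916 in MLN. Klrg1, a receptor of mature ILC2, was at 30.8 and 32.3 CPM in thymus and 86.1 and 72.5 in MLN. For Id1, these counts do not tell reads of the transgene from reads of the endogenous gene. The Id1 count was level between the organs at 422 and 426 against 434 and 469 CPM (log2 fold change -0.09 ± 0.07, adjusted p = 0.32). Rora, another ILC2 factor, and Il5, the eosinophil growth factor, were not called either (adjusted p = 0.13 and 0.48).

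A gene is called where the quasi-likelihood test of edgeR gave an adjusted p under 0.05 over all 16231 genes tested. Of these 7677 were called, 47.3%, with 4105 higher in thymus (25.3%) and 3572 lower (22.0%). Counts for single lists below are to be read beside these shares, and several lists lie near them. Differences were mostly small, with a median of 0 and quartiles of -0.31 and 0.37 on the log2 scale. A test against a 2-fold change called 897 genes higher (5.53%) and 401 lower (2.47%). The 2 thymus libraries and the 2 MLN libraries did not overlap for 11810 genes (72.8%). All 67 cell cycle genes were higher in thymus (median 3.85), all 60 interferon response genes tested were lower (median -1.59), and of 33 early thymocyte genes tested 24 were higher and 1 was lower. Those lists move with the organ through every comparison below, and their part in the other groups was not tested. In bulk libraries a smaller share of cells with a gene and less RNA of it per cell cannot be told apart.

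**Figure D1:**
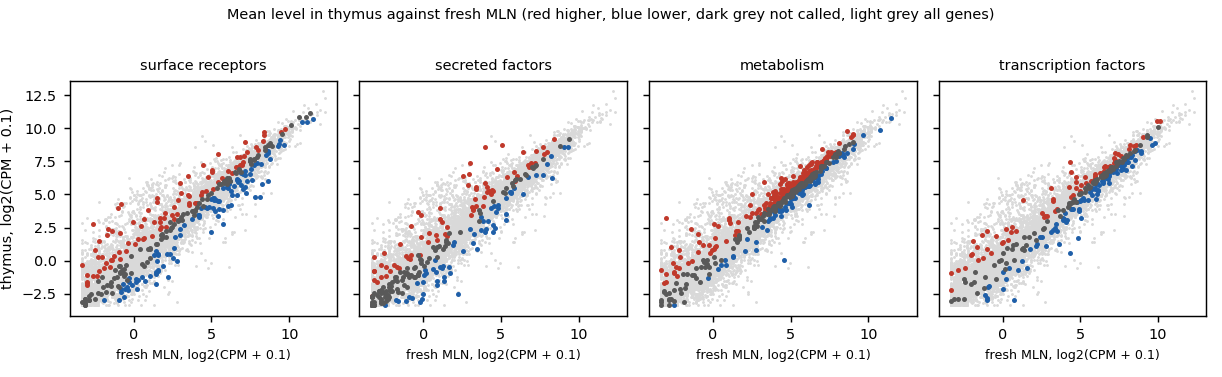
Mean level of each gene tested in fresh MLN (horizontal axis) and thymus (vertical axis), as log2(CPM + 0.1), with the genes of each class coloured. Red genes were higher in thymus, blue lower, dark grey not called, and light grey are all 16231 genes tested. Surface receptors and secreted factors spread far to both sides. Metabolic genes lie closer together than these, with 235 of 483 higher. Their quartiles were -0.13 and 0.59 on the log2 scale, beside -0.31 and 0.37 for all genes tested.

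Surface receptors differed in both directions and by large factors. Receptors for a gut-associated neuropeptide (Vipr2), short-chain fatty acids (Ffar2), glial-derived ligands (Ret) and gut homing (Ccr9) were 5.37 to 10.1 times as high in MLN, and receptors for inflammatory migration (Ccr2) and IL-18 (Il18r1) were 2.46 to 6.11 times as high in thymus. Of 401 receptor genes listed 321 were tested, and 94 of these were higher in thymus, 110 lower and 117 not called. That is 63.6% called, beside 47.3% of all genes tested and 56.6% of genes with 5 CPM or more in the higher organ. The 2-fold test called 37 higher (11.5%) and 38 lower (11.8%), beside 5.53% and 2.47% of all genes tested.

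Vipr2, a receptor for vasoactive intestinal peptide, was at 25.8 and 29.6 CPM in thymus and at 254 and 302 in MLN. Its log2 fold change was -3.33 ± 0.11 (adjusted p = 6.8e-11). Ffar2, which senses acetate and other short-chain fatty acids, was at 25.2 and 29.8 CPM in thymus and 211 and 244 in MLN (-3.05 ± 0.10). The other main receptor for vasoactive intestinal peptide went the opposite way. Vipr1, chosen after its values were seen, was at 11.3 and 12.6 CPM in thymus and 3.47 and 4.30 in MLN (1.62 ± 0.17). Cysltr2, a receptor for cysteinyl leukotrienes, was lower in thymus at 44.5 and 42.7 CPM against 133 and 126. Nmur1, the neuromedin U receptor of ILC2, also chosen after its values were seen, was at 70.1 and 59.1 CPM in thymus and 174 and 132 in MLN (-1.25 ± 0.11).

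In the same list Ramp3, an accessory chain that pairs with calcitonin-type receptors, was at 119 and 115 CPM in thymus and 29.4 and 35.5 in MLN (1.85 ± 0.09). Adgrg1 and Adgrg3, adhesion-type receptors coupled to G proteins, were higher in thymus. Adgrg1 was at 21.1 and 18.0 CPM in thymus and 0.360 and 0.558 in MLN, 42.6 times as high, and Adgrg3 at 15.3 and 12.2 against 1.49 and 2.04. Over the 64 receptors for neuropeptides, lipids, nucleotides and hormones that were tested, 17 were higher (26.6%) and 20 lower (31.2%), with a median of -0.07. The shares of all genes tested were 25.3% and 22.0%. The list as a whole thus had no common direction, and its 2 members with the highest CPM, Adgre5 and Gpr132, were not called.

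Growth factor and guidance receptors divided likewise, with 15 of 55 higher (27.3%) and 18 lower (32.7%), beside 25.3% and 22.0% of all genes tested. Ret, the receptor tyrosine kinase for the glial-derived neurotrophic factor family, was at 65.6 and 61.6 CPM in thymus and 415 and 377 in MLN (-2.64 ± 0.08, adjusted p = 3.2e-11). Its mean was 6.22 times as high in MLN. Tlr7, a sensor of single-stranded RNA placed in this list, was at 5.79 and 7.82 CPM in thymus and 49.8 and 58.2 in MLN. Nrp1, a co-receptor for semaphorins and VEGF, was at 51.4 and 55.7 against 126 and 116 CPM. On the other side stood Ephb2, an ephrin receptor, at 18.3 and 13.9 CPM in thymus and 0.437 and 0.372 in MLN (5.30 ± 0.24). Robo1, a receptor for Slit guidance proteins, was at 22.4 and 21.0 CPM in thymus and 2.88 and 2.60 in MLN. Fgfr1, a receptor for fibroblast growth factors, followed the same order at 60.8 and 58.4 against 5.58 and 9.72 CPM.

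Genes of migration and adhesion differed between the organs in both directions. Ccr2, a receptor that guides cells from marrow and blood to inflamed tissue, was at 808 and 826 CPM in thymus and 318 and 346 in MLN (1.30 ± 0.10, adjusted p = 2.3e-07). Cx3cr1, the fractalkine receptor, was at 7.44 and 7.45 against 0.771 and 1.01 CPM. S1pr1, the receptor for exit into blood and lymph, chosen after its values were seen, was at 222 and 230 CPM in thymus and 92.4 and 104 in MLN. Lower in thymus were Ccr9, with which lymphocytes home to the gut, at 58.1 and 54.4 against 335 and 269 CPM, and Cd69, which opposes S1pr1 at the cell surface, at 45.0 and 49.6 against 123 and 165. Ccrl2, which binds chemerin without signalling, was at 3.77 and 4.97 against 29.6 and 33.5 CPM. Of 29 homing genes tested 12 were higher and 10 lower. Among 49 integrin and adhesion genes 17 were higher and 14 lower. Itgae, the chain of the integrin that binds E-cadherin on epithelium, was at 17.0 and 17.8 CPM in thymus and 77.2 and 58.0 in MLN (-1.96 ± 0.12). Icam1, a ligand of leukocyte integrins, was also lower in thymus, at 28.6 and 32.6 against 82.9 and 116 CPM. Cd24a, a surface glycoprotein of immature lymphocytes, was at 77.9 and 88.3 CPM in thymus and 10.9 and 11.2 in MLN (2.91 ± 0.13), and Itga6, a laminin receptor chain, at 31.4 and 26.9 against 12.1 and 11.7.

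**Figure D2:**
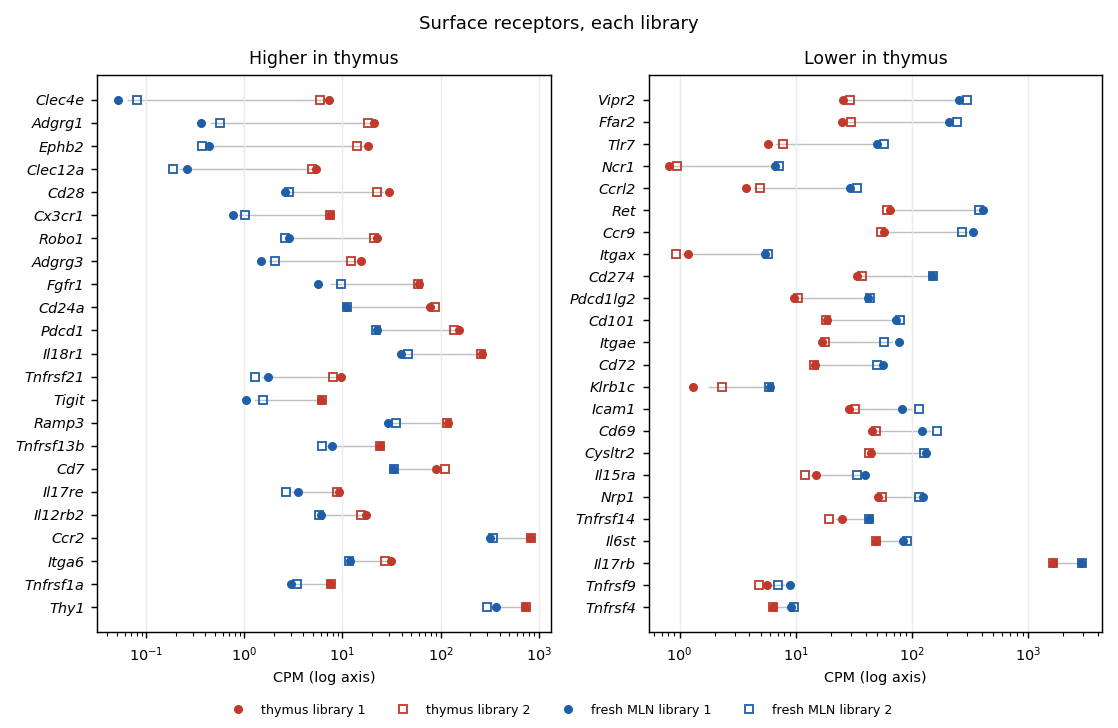
Normalised read count (CPM, log axis) of receptor genes in each library, for up to 3 called members with the highest and lowest log2 fold change in each receptor list. Red marks thymus and blue fresh MLN, with circles for library 1, squares for library 2 and a grey line between the means. Only genes at 5 CPM or more whose libraries do not overlap between the organs could be shown, so their separation follows from the choice. The right panel, of genes lower in thymus, runs from Vipr2 at 25.8 and 29.6 against 254 and 302 CPM to Tnfrsf4 at 6.43 and 6.38 against 9.20 and 9.67.

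Receptors and ligands of the PD-1 system went opposite ways. Pdcd1, which encodes the inhibitory receptor PD-1, was at 153 and 139 CPM in thymus and 22.4 and 22.1 in MLN (2.71 ± 0.17). Its ligands were lower in thymus, with Cd274 (PD-L1) at 33.9 and 36.9 against 150 and 152 CPM and Pdcd1lg2 (PD-L2) at 9.64 and 10.5 against 41.8 and 44.1. The log2 fold changes of the 2 ligands were -2.09 ± 0.07 and -2.09 ± 0.10. Cd28 and Tigit, an activating and an inhibitory receptor of T cells, were higher in thymus at 29.7 and 22.4 against 2.57 and 2.84 CPM and at 6.09 and 6.20 against 1.03 and 1.54. Icos, a costimulator that ILC2 use, was at 382 and 398 CPM in thymus and 232 and 229 in MLN. Cd101, an inhibitory immunoglobulin-type receptor, was lower in thymus at 18.8 and 18.1 against 73.4 and 79.4 CPM. Siglecf, an inhibitory lectin best known from eosinophils and chosen after its values were seen, had 54 counts over the thymus libraries and 0 over MLN, at least 17.6-fold higher with 3 counts taken as the floor of the group. Over the 33 genes of costimulation and inhibition tested 12 were higher and 10 lower.

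Cytokine receptors of the alarmin and interleukin families had 10 of 40 higher and 15 lower. Il18r1 was at 265 and 259 CPM in thymus and 39.4 and 46.3 in MLN, and Il12rb2, a chain of the IL-12 receptor, at 17.4 and 15.3 against 6.07 and 5.74. Il7r, the receptor for the survival factor IL-7, was at 1412 and 1448 CPM in thymus and 2143 and 2418 in MLN (-0.67 ± 0.08). Il17rb fell by 0.81 ± 0.08 on the log2 scale, Il6st, the shared signalling chain of the IL-6 family, by 0.83 ± 0.08, and Il15ra, which presents IL-15, by 1.44 ± 0.11. TNF receptors had 5 of 22 higher (22.7%) and 6 lower (27.3%), near the 25.3% and 22.0% of all genes tested. Tnfrsf13b, a receptor for BAFF and APRIL, was at 24.0 in each thymus library and at 7.84 and 6.21 CPM in MLN, and Tnfrsf14, the LIGHT receptor, was lower at 25 and 19.4 against 43.1 and 42.8.

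NK-type and lectin receptors were mostly lower in thymus, with 17 of 29 tested lower, 6 higher and a median of -1.30. Ncr1, which encodes the NK receptor NKp46, was at 0.813 and 0.957 CPM in thymus and 6.63 and 7.25 in MLN, and Klrb1c, NK1.1, at 1.31 and 2.31 against 5.99 and 5.95. Cd72, an inhibitory lectin best known from B cells, was at 14.6 and 14.3 against 56.8 and 50.3 CPM. Markers of NK cells and ILC1, of which Ncr1 and Klrb1c are also members, fell in 9 of 10 cases. Their summed level was 59.1 and 55.5 CPM in thymus and 97.8 and 87.0 in MLN, and Gzma, with the highest CPM of the 10, was not called at 39.2 and 33.9 against 36.2 and 32.8. Whether admixed NK cells or ILC1 set the fall of the receptors was not tested. Exceptions to the list were Clec4e and Clec12a, lectins best known from myeloid cells, which were higher in thymus at 7.37 and 5.85 against 0.0514 and 0.0797 CPM and at 5.35 and 4.87 against 0.257 and 0.186. Cd7, a receptor of early T and innate lymphocytes, was at 90.2 and 112 against 32.4 and 33.3 CPM.

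Secreted factors moved in both directions. Lgals1 and Lgals3 (galectins), Anxa2 (an annexin) and Igfbp4 (a growth factor binding protein) were 12.5 to 24.9 times as high in thymus, while Csf1, Il6, Ebi3 and Ccl5 were higher in MLN. Of 396 genes listed 252 were tested, since 138 had too few counts and 6 had no identifier, and 73 were higher in thymus, 64 lower and 115 not called (54.4% called, beside 47.3% of all genes tested and 56.6% of those at 5 CPM or more). The 2-fold test called 28 higher (11.1%) and 27 lower (10.7%), beside 5.53% and 2.47% of all genes tested.

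Among interleukins and haematopoietic cytokines 10 of 29 were lower in thymus and 4 higher. Csf1, the growth factor of macrophages, was at 11.1 and 11.8 CPM in thymus and 42.4 and 38.8 in MLN (-1.83 ± 0.11, adjusted p = 2.7e-08). Il6 was at 4.07 and 4.87 against 17.3 and 13.7 CPM (-1.80 ± 0.13), and Ebi3, a chain of IL-27 and IL-35, at 5.59 and 7.39 against 23.5 and 21.0 (-1.78 ± 0.12). These 3 genes were named as the lowest of the list among called genes without overlap between the organs. Csf2 and Il4, chosen after their values were seen, were lower in thymus too, Csf2 (GM-CSF) at 4.66 and 5.0 against 13.1 and 12.4 CPM and Il4 at 25.9 and 26.8 against 38.4 and 40.0. Higher in thymus were Lif, a cytokine of the IL-6 family, at 36.5 and 38.4 against 23.7 and 13 CPM, Mif, at 31.1 and 32.8 against 21.3 and 18.6, and Il13, at 12.4 and 15.6 against 10.1 and 7.97. The type 2 cytokine genes therefore did not move together, with Il13 higher, Il4 lower and Il5 not called.

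Csf1, Il6 and Ebi3 had the lowest log2 fold changes of the cytokine list at 5 CPM or more, and several genes of NF-kB, a factor family induced by danger and cytokine signals, were also lower in thymus. Nfkb1, the subunit gene with the highest CPM, was not called. The promoters of Csf1, Il6 and Ebi3 are shown as sequence only, and none of a cytokine gene higher in thymus is printed. A part of NF-kB in these differences was not tested. Each stretch is the 250 bases before the start site in RefSeq (build GRCm38.p6), read 5′ to 3′ on the gene's strand, with matches to the kappaB motif of NF-kB in capitals (both strands searched).
Il6 (chr5:30012864-30013113, plus strand): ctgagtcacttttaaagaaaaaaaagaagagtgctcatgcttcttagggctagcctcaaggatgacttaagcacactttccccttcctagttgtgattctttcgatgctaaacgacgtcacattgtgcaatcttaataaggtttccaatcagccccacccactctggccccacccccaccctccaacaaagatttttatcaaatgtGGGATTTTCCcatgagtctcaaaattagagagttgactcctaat
Ebi3 (chr17:55952373-55952622, plus strand): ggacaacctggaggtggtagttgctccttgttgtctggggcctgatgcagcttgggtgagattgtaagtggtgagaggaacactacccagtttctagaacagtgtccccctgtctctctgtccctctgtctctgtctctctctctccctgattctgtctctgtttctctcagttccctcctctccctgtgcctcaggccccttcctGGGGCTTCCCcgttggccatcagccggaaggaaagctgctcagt
Csf1 (chr3:107760470-107760719, minus strand): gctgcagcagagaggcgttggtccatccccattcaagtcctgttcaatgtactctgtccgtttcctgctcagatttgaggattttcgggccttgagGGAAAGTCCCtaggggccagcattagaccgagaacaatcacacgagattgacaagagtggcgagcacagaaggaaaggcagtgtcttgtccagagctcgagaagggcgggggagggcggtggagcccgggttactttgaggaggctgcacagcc
In Il6 and Ebi3 the match spans positions -44 to -35 before the start site, and in Csf1 -154 to -145. Such a match stood in 7.25% of the 32851 promoter stretches of this length in the table. Counted by gene, it stood in 10.7% of the 10703 tested genes with a promoter entry, in 10.9% of the 2542 of these that were lower in thymus and in 11.3% of the 2973 that were higher. Genes higher and lower in thymus thus held it in nearly equal shares. Of 8 cytokine genes that were lower and had an entry, 3 held a match, which are the 3 printed here, and of all 22 cytokine genes tested with an entry 6 did (27.3%). A match describes the letters only and is no evidence of binding.

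Chemokines were mostly low in these cells, and 7 of 17 were lower in thymus and 1 was higher (median -0.88). Ccl5, which attracts T cells and eosinophils, was at 5.13 and 5.72 CPM in thymus and 24.6 and 23.7 in MLN. Cxcl11, an interferon-induced chemokine, had 3 counts over the thymus libraries and 65 over MLN, a ratio of 22.1 (95% counting interval 7.24 to 110). Ligands of the TNF family split evenly, with 5 of 11 higher and 5 lower. Tnf and Lta were higher in thymus, at 7.07 and 7.92 against 2.00 and 2.34 CPM and at 16.5 and 17.8 against 11.8 and 8.98. Their relative Ltb, which with Lta forms the lymphotoxin that builds lymphoid tissue, was lower at 360 and 394 against 635 and 624 CPM (-0.74 ± 0.09), as was Tnfsf10 (TRAIL), at 92.2 and 86.8 against 165 and 143.

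Growth factors and their binding proteins included several that were far higher in thymus. Igfbp4, which binds insulin-like growth factors, was at 416 and 425 CPM in thymus and 32.6 and 35.0 in MLN (3.64 ± 0.08, adjusted p = 3.2e-12). Angptl2, an angiopoietin-like protein, was at 14 and 10.8 against 0.874 and 0.478 CPM, and Tgfb3, a TGF-beta isoform, at 11.2 and 10.3 against 0.822 and 0.797. Each was over 10 times as high in thymus. Lower in thymus were Bmp7, a bone morphogenetic protein, at 32.6 and 31.8 against 86.0 and 80.3 CPM, and the semaphorin Sema6d, at 5.54 and 3.32 against 26.3 and 17.6. In all 18 of 52 were higher and 12 lower.

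Calca encodes the neuropeptide CGRP and, by splicing, calcitonin, and stood at 49.7 and 56.9 CPM in thymus and 5.29 and 9.43 in MLN (2.86 ± 0.17). Both Calca and Ramp3 were thus higher in thymus. The CGRP receptor itself is formed by Calcrl with Ramp1, both chosen after their values were seen. Calcrl was at 63.9 and 64.7 against 77.6 and 71.0 CPM (-0.21 ± 0.07, adjusted p = 0.032), and Ramp1 was not called (adjusted p = 0.31). Maoa, which degrades monoamines, was at 6.68 and 5.58 against 0.334 and 0.637 CPM, and the vesicular monoamine transporter Slc18a2 at 81.7 and 90.8 against 62.5 and 68.6. Of 12 genes of neuropeptides and amine synthesis tested 5 were higher and 1 lower.

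Lgals1, galectin-1, was at 361 and 416 CPM in thymus and 16.2 and 14.9 in MLN, 24.9 times as high (4.64 ± 0.10, adjusted p = 3.0e-12). Lgals3, galectin-3, was at 171 and 157 against 7.50 and 8.13 CPM, and Anxa2, a membrane-binding annexin, at 88.7 and 83.3 against 5.83 and 5.74. The libraries within each organ stood close together for all 3 genes. The galectin-binding protein Lgals3bp went the other way, at 354 and 408 CPM in thymus and 537 and 524 in MLN. Of 67 complement, matrix, carrier and antimicrobial genes 20 were higher (29.9%) and 15 lower (22.4%), near the 25.3% and 22.0% of all genes tested. Lyz2, lysozyme, was lower at 0.863 and 2.74 against 7.89 and 13.7 CPM (-2.59 ± 0.41), and its log2 fold change was -1.97 without thymus replicate 1 and -3.63 without thymus replicate 2.

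Granule proteins and proteases had 20 of 64 higher (31.2%) and 14 lower (21.9%), beside 25.3% and 22.0% of all genes tested. Gzmb, granzyme B, was at 50.5 and 42.1 CPM in thymus and 11 and 9.56 in MLN, whereas Prf1, the pore-forming perforin, was at 5.57 and 4.68 against 17.8 and 15.3. Plaur, the urokinase receptor, was at 15.9 and 16.1 against 1.59 and 2.47 CPM. Cpa3, a carboxypeptidase of mast cell granules, was at 117 and 121 CPM in thymus and 23.9 and 28.2 in MLN (2.19 ± 0.08). Summed mast cell and basophil markers stood at 121 and 126 CPM in thymus and 25.6 and 29.7 in MLN, nearly all of it Cpa3. The mast cell proteases Mcpt1, Mcpt2, Mcpt4 and Tpsb2 had 0 counts in all 4 libraries, and 2 of the 6 markers tested were called, Cpa3 and Hdc. The protease inhibitors Serpina3g and Serpina3f were lower in thymus, Serpina3g at 70.0 and 79.6 against 334 and 289 CPM.

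**Figure D3:**
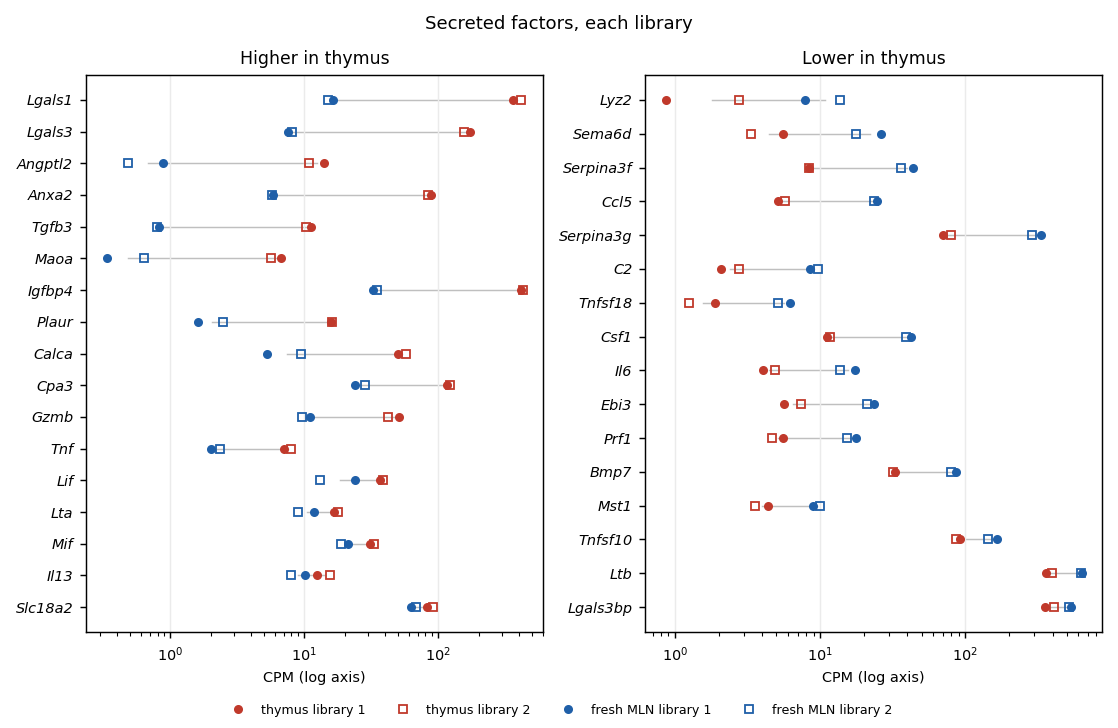
CPM (log axis) of genes for secreted factors in each library. Shown are up to 3 called members with the highest and lowest log2 fold change in each list of secreted factors. They were chosen among genes at 5 CPM or more without overlap between the organs. Red marks thymus and blue fresh MLN, with circles for library 1, squares for library 2 and a grey line between the means. Lgals1 heads the left panel, 24.9 times as high in thymus, and Lyz2, at the top of the right panel, has libraries of 0.863 and 2.74 CPM in thymus that lie far apart.

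Metabolic genes moved mostly upward in thymus and, like all genes tested, mostly by small factors. Genes that make nucleotides, serine and 1-carbon units, and those of the respiratory chain, were higher in thymus in most cases where they were called. Of 513 genes listed 483 were tested, with 235 higher in thymus, 86 lower and 162 not called, 66.5% called beside 47.3% of all genes tested and 56.6% of those at 5 CPM or more. The median log2 fold change was 0.24, beside 0 for all genes tested and 0 for genes at 5 CPM or more. The quartiles were -0.13 and 0.59, beside -0.31 and 0.37 for all genes tested. The 2-fold test called 34 higher (7.04%) and 3 lower (0.621%), beside 5.53% and 2.47% of all genes. The 67 cell cycle genes, all higher in thymus, summed to 5610 and 5440 CPM there and 820 and 792 in MLN, and their part in the metabolic differences was not tested.

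Oxidative phosphorylation had the highest share of genes higher in thymus of the 11 metabolic lists, 70.5%, with 43 of 61 higher, 3 lower and a median of 0.34. Uqcrq, a subunit of complex III, was at 40.5 and 44.6 CPM in thymus and 21.6 and 19.8 in MLN (1.04 ± 0.08), the highest log2 fold change of the list. Atp5b, the catalytic beta subunit of ATP synthase, was at 756 and 793 against 540 and 480 CPM (0.60 ± 0.08). Cox10, which makes the haem of cytochrome oxidase, was lower at 56.8 and 58.6 against 95.3 and 93.8 CPM. Transcripts of the mitochondrial genome were higher for 7 of 7 tested, with a median of 0.91 and a summed level of 14800 and 15600 CPM in thymus against 9100 and 8950 in MLN. Of the 13 listed 6 had too few counts to test, among them mt-Co2 with 1 and 1 counts in thymus and 0 and 0 in MLN. The sum is therefore not the level of all mitochondrial transcripts. In the citrate cycle 22 of 38 genes were higher and 3 lower, among them Idh2, mitochondrial isocitrate dehydrogenase, at 50.9 and 52.9 against 27.8 and 25.2 CPM. Sdha, a subunit of succinate dehydrogenase, was not called (0.02 ± 0.07, adjusted p = 0.84).

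Glycolysis genes rose in 16 of 33 cases and fell in 6. Ldha, which makes lactate, was at 854 and 936 CPM in thymus and 383 and 387 in MLN (1.22 ± 0.08). Hk2, an inducible hexokinase, was at 39.9 and 31.1 against 16.4 and 12.5 CPM. The glucose transporter gene Slc2a3 was lower instead, at 31.4 and 31.2 against 56.6 and 50.5 CPM, and Aldoa was not called (0.07 ± 0.07, adjusted p = 0.43). Txnip, an arrestin-like protein that restrains glucose uptake, was lower as well, at 826 and 1032 CPM in thymus and 1621 and 1756 in MLN (-0.86 ± 0.10). In the pentose phosphate and NADPH list 11 of 19 were higher and 1 lower, and Tkt, transketolase, was at 301 and 302 against 173 and 158 CPM.

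Nucleotide genes had 27 of 44 higher and 8 lower, with a median of 0.39. Dck, which salvages deoxynucleosides for DNA synthesis, was at 65.7 and 59.3 CPM in thymus and 9.89 and 9.53 in MLN (2.69 ± 0.09, adjusted p = 6.7e-11). Adk, adenosine kinase, was at 32.4 and 31.8 against 5.45 and 5.74 CPM, and Dut, which keeps uracil out of DNA, at 73.2 and 75.1 against 21.2 and 20.9. Other members were lower in thymus. Xdh, xanthine dehydrogenase, was at 19.9 and 16.2 against 70.7 and 70.8 CPM (-1.97 ± 0.10), Tk2, the mitochondrial thymidine kinase, at 59.9 and 64.1 against 107 and 106, and Samhd1, which destroys deoxynucleotides and is known to be interferon-induced, at 1743 and 1802 against 2603 and 2944.

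Serine and 1-carbon genes were higher in 11 of 23 cases and lower in 2. Phgdh and Psat1, consecutive enzymes of serine synthesis, and Mthfd2, a mitochondrial folate enzyme, rose by nearly the same factor. Psat1 was at 72.3 and 69.1 CPM in thymus and 26.7 and 22.1 in MLN (1.53 ± 0.08), Phgdh at 33.9 and 30.8 against 12.3 and 10.5 (1.5 ± 0.10), and Mthfd2 at 56.7 and 52.4 against 21.8 and 18.1 (1.45 ± 0.09). Amino acid genes were more divided, with 21 of 50 higher and 12 lower. Slc7a5, a transporter of large neutral amino acids, was at 39.3 and 37.3 against 16.8 and 15.2 CPM, and Ass1, an enzyme of arginine synthesis, at 17.5 and 18.9 against 5.27 and 5.05. Arg1, the arginase of ILC2, was lower in thymus at 49.5 and 60.0 against 97.7 and 87.5 CPM (-0.76 ± 0.10).

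Among lipid genes, related enzymes went opposite ways. Dgat1 and Dgat2 both catalyse the last step of triglyceride synthesis. Dgat1 was at 136 and 146 CPM in thymus and 45.2 and 53.7 in MLN (1.51 ± 0.09, adjusted p = 1.5e-08). Dgat2 was at 1.03 and 0.904 CPM in thymus and 23.7 and 24.4 in MLN, 24.8 times as high in MLN (-4.63 ± 0.14, adjusted p = 4.4e-11). The 2 enzymes thus differed between the organs in opposite directions. Scd2, a stearoyl-CoA desaturase, was at 391 and 309 CPM in thymus against 141 and 117 in MLN. Fads2, which starts the synthesis of polyunsaturated fatty acids, had 725 counts over the thymus libraries and 2 over MLN, a ratio of 355 (95% counting interval 97.9 to 2940). Fads3, chosen after its values were seen, had 41 counts over the thymus libraries and 0 over MLN, at least 13.4-fold higher with 3 counts taken as the floor of the group. Lipe, the hormone-sensitive lipase that releases stored fat, was lower at 19.2 and 19.5 against 32.8 and 32.7 CPM. Of 63 fatty acid genes 28 were higher and 10 lower.

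Sterol genes showed no common direction, with 14 of 37 higher, 10 lower and a median of 0.14. Fdps, of the mevalonate pathway, was at 11.7 and 12.3 CPM in thymus and 5.65 and 5.6 in MLN, and the cholesterol exporters Abca1 and Abcg1 were lower, with log2 fold changes of -0.58 ± 0.08 and -0.37 ± 0.07. In the redox and metal list 29 of 66 were higher and 14 lower, led by Steap3, an iron reductase, at 5.25 and 4.84 against 0.231 and 0.319 CPM, and Nqo1, a quinone reductase, at 5.15 and 8.03 against 0.874 and 1.01. The list of eicosanoid, phospholipid and sphingolipid enzymes was the only metabolic list of the 11 with more genes lower (17 of 49) than higher (13). In it Pla2g4a and Alox5ap, which release arachidonic acid and hand it to leukotriene synthesis, were higher in thymus at 6.75 and 7.34 against 2.00 and 2.07 CPM and at 18.5 and 23.3 against 10.5 and 10.2. Hpgds, which makes prostaglandin D2, was lower at 16.4 and 16.3 against 34.3 and 32.9 CPM.

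**Figure D4:**
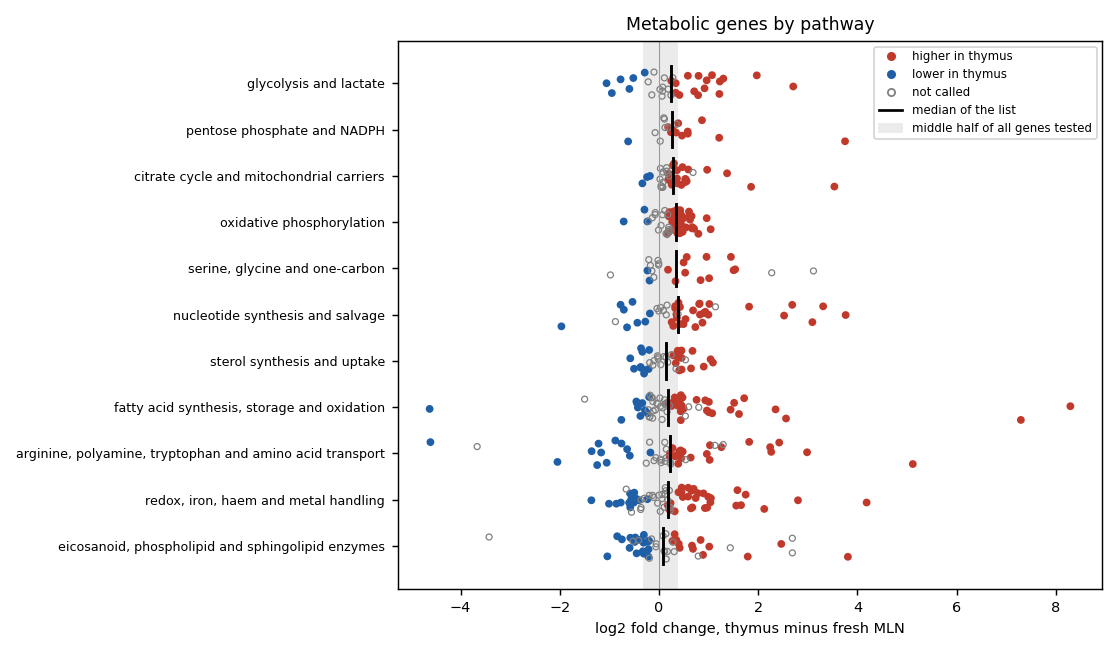
Log2 fold change of thymus against fresh MLN for each metabolic gene tested, by pathway list, with a black bar at the median of the list and a grey band over the quartiles of all genes tested (-0.31 to 0.37). Red genes were higher in thymus, blue lower and open circles not called. The medians of all 11 lists lie between 0.08 and 0.39, and the 2 points beyond 6 are Fads2 and Fads3, whose fitted values rest on 2 and 0 counts in MLN.

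Transcription factors were more often lower than higher in thymus, in contrast to metabolic genes. Fosl2, Nfe2 and Sox4 were among the genes that were higher, and Hic1, Pou6f1, Klf4, Prdm1 and Nfkbiz among those that were lower. Of 333 genes listed 281 were tested, with 71 higher, 102 lower and 108 not called (61.6% called beside 47.3% of all genes tested and 56.6% of those at 5 CPM or more). The 2-fold test called 21 higher (7.47%) and 11 lower (3.91%). All genes tested had the same order under that test, with 5.53% higher and 2.47% lower.

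Among lineage factors 17 of 55 were higher and 19 lower. Lef1, a partner of beta-catenin in early T cells and innate precursors, was at 61.0 and 62.1 CPM in thymus and 26.1 and 26.7 in MLN (1.22 ± 0.07). Id2, the inhibitor of E proteins that innate lymphoid cells require, was at 453 and 494 CPM in thymus and 863 and 884 in MLN (-0.88 ± 0.07). Id3, its relative, chosen after its values were seen, had 40 counts over the thymus libraries and 3 over MLN, a ratio of 13.1 (95% counting interval 4.16 to 66.0). Prdm1, which encodes Blimp-1, was at 26.1 and 23.2 against 61.6 and 69.5 CPM, and its antagonist Bcl6 was lower too, at 8.36 and 6.83 against 14.5 and 19.2. Zbtb16, which encodes PLZF, a factor of ILC precursors, was at 44.8 and 47.8 CPM in thymus and at 10.3 and 28.7 in MLN (1.25 ± 0.30, adjusted p = 0.0049). The 2 MLN libraries of Zbtb16 differed widely: the log2 fold change was 2.16 without fresh MLN replicate 2, and DESeq2 did not call it (adjusted p = 0.18).

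In the AP-1 and early response list 15 of 43 were higher and 9 lower. Fosl2, an AP-1 subunit, was at 186 and 171 CPM in thymus and 16.8 and 23.9 in MLN (3.13 ± 0.13, adjusted p = 5.2e-10). Nfe2, a basic leucine zipper factor best known from blood cells, was at 23 and 25 against 2.34 and 2.50 CPM. Egr2, an early response factor, was at 5.62 and 4.97 against 1.57 and 0.611 CPM (2.27 ± 0.29, and 3.11 without fresh MLN replicate 1). Other AP-1 genes went both ways. Batf was lower at 36.6 and 45.6 against 65.8 and 72.8 CPM, and Jun at 3.82 and 4.97 against 6.01 and 11.3, while Fos, which was picked after its values were seen, had the opposite sign (1.68 ± 0.26, adjusted p = 0.00018). Heat shock genes, which like early response genes are induced when cells are handled, were higher for 7 of 11 and lower for 0, with a summed level of 3650 and 3470 CPM in thymus and 3080 and 2550 in MLN, and their part in this list was not tested.

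The list of NF-kB, STAT and IRF factors had 15 of 23 genes lower in thymus and 3 higher, with a median of -0.29. Nfkbiz, a nuclear cofactor of NF-kB, was at 144 and 139 CPM in thymus and 329 and 298 in MLN (-1.15 ± 0.07, adjusted p = 5.6e-08), and Bcl3, a cofactor of the same kind, at 12.8 and 13.8 against 29.6 and 31.6. The subunit genes Relb, Nfkb2 and Rela, chosen after their values were seen, had log2 fold changes of -1.03 ± 0.08, -0.54 ± 0.06 and -0.34 ± 0.07. Nfkb1, the subunit gene with the highest CPM, was at 993 and 1142 against 930 and 1086 and was not called (adjusted p = 0.50). Irf8 was at 1.85 and 2.31 against 7.40 and 6.40 CPM. Irf1, an interferon-induced factor chosen after its values were seen, was at 182 and 202 against 349 and 384 CPM. The list also holds Prdm2 and Prdm9, which belong to none of these families. The exceptions that rose included Irf4, chosen after its values were seen, a factor induced by receptor signals in lymphocytes, at 3.5 and 3.54 against 0.668 and 0.637 CPM.

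Nuclear receptors and clock factors were lower for 21 of 44 and higher for 9, with a median of -0.23. Epas1 and Hif1a, which encode the oxygen-sensing subunits HIF-2alpha and HIF-1alpha, went opposite ways. Epas1 was at 425 and 408 CPM in thymus and 839 and 716 in MLN (-0.90 ± 0.09), and Hif1a at 140 and 142 against 92.8 and 100 (0.54 ± 0.13, adjusted p = 0.0042). The call of Hif1a was lost with DESeq2 (adjusted p = 0.0509). Rxra, the shared partner of many nuclear receptors, was at 81.1 and 74.6 against 41.0 and 39.3 CPM, and Hlf, a factor of blood stem cells, at 295 and 266 against 159 and 139. Ahrr, a repressor that the aryl hydrocarbon receptor induces, chosen after its values were seen, had 2 counts over the thymus libraries and 120 over MLN, a ratio of 61.3 (95% counting interval 16.6 to 512). The receptor gene itself, Ahr, chosen in the same way, was at 207 and 198 against 246 and 218 CPM (-0.20 ± 0.07, adjusted p = 0.042). Per2, of the clock, was lower at 5.25 and 4.04 against 10.6 and 11.7 CPM. The hour at which the organs were taken is not given in the labels.

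KLF and MYC network factors had 8 of 35 higher (22.9%) and 10 lower (28.6%), near the 25.3% and 22.0% of all genes tested. Klf4, a factor that restrains division, was at 2.39 and 2.34 CPM in thymus and 13.4 and 11.1 in MLN (-2.37 ± 0.17), and Mycn, of the MYC family, at 20.6 and 24.2 against 8.71 and 9.80 (1.28 ± 0.14). Klf2, which drives S1pr1 in lymphocytes, was at 248 and 283 against 164 and 174 CPM (0.65 ± 0.11), a call that DESeq2 did not make (adjusted p = 0.08). Homeobox, SOX and related factors were higher for 19 of 81 and lower for 28. Sox4, a factor of immature lymphocytes, was at 47.3 and 41.8 CPM in thymus and 7.89 and 9.14 in MLN (2.39 ± 0.11), and Aff3, an elongation factor component, at 85.6 and 77.4 against 26.4 and 27.0. Hic1, a repressor linked to retinoic acid signals in gut lymphocytes, was at 1.33 and 1.54 CPM in thymus and 22.5 and 18.1 in MLN (-3.82 ± 0.15, adjusted p = 3.4e-10). Pou6f1 and Pou2f2 were lower as well, at 3.10 and 3.35 against 28 and 29.7 CPM and at 10.7 and 8.06 against 36.1 and 31.1.

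**Figure D5:**
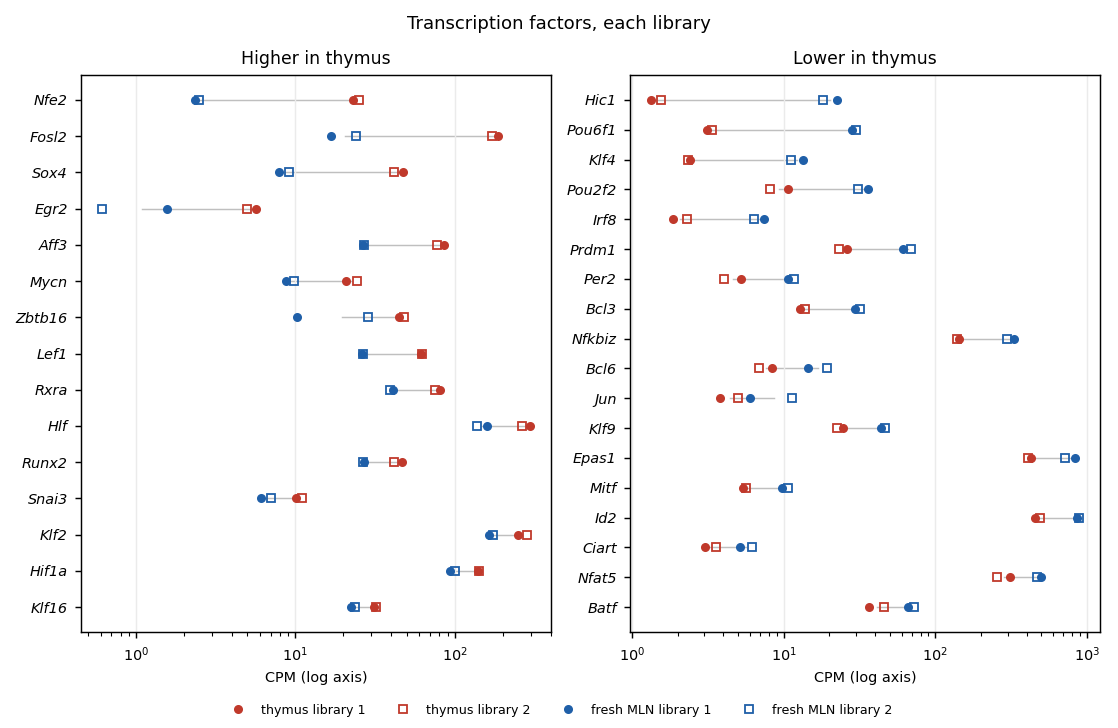
CPM (log axis) of transcription factor genes in each library. Shown are up to 3 called members with the highest and lowest log2 fold change in each list of factors. They were chosen among genes at 5 CPM or more without overlap between the organs. Red marks thymus and blue fresh MLN, with circles for library 1, squares for library 2 and a grey line between the means. Nfe2 and Fosl2 have the widest gaps in the left panel and Hic1 in the right, and the 2 MLN libraries of Zbtb16 stand apart at 10.3 and 28.7 CPM.

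Over all genes outside the 3 lists set apart, the highest log2 fold change at 10 CPM or more was that of Slc15a1, the proton-coupled transporter of di- and tripeptides known from intestine, at 25.7 and 18.5 CPM in thymus and 0.103 and 0.133 in MLN (7.51 ± 0.30, adjusted p = 4.2e-10). Neurl1b, a ubiquitin ligase of Notch ligands, was at 17.3 and 15.1 against 0.334 and 0.372 CPM. Adgrg1 and Ephb2, described above, came with them, and the other 6 of the top 10 (Pif1, Iqgap3, Espl1, Neil3, Kif18b and Kif2c) act in chromosome division, DNA repair or dividing cells although they were not in the cell cycle list. Leaving out single MLN libraries moved the log2 fold changes of Pif1 (5.79) and Iqgap3 (5.20), to between 5.19 and 6.87 for Pif1 and up to 6.15 for Iqgap3. The lowest was Cybb, the catalytic subunit of the phagocyte oxidase, at 0.493 and 0.745 CPM in thymus and 72.3 and 66.8 in MLN (-6.81 ± 0.14, adjusted p = 3.0e-12). Dgat2 was among the 10 lowest, as were Fscn1, an actin-bundling protein, at 0.542 and 0.798 against 14.4 and 17.4 CPM, Atp8a2, a phospholipid flippase, at 3.79 and 2.71 against 67.2 and 52.1, and Ms4a4c, a membrane protein, at 3.94 and 4.95 against 92.3 and 83.6. Slfn1 and Ifit1bl1 in the same 10 belong to families known to be interferon-induced. Gm4841, F830016B08Rik and Gm4951 complete the 10. Whether other genes of the 10 are interferon-induced too was not examined. The part of the interferon response in the 10 lowest genes was not tested.

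Markers of other cell types moved with some of these genes. Of 12 macrophage and monocyte markers tested 6 were lower in thymus and 1 higher, and the summed level of 15 was 817 and 840 CPM in thymus against 412 and 446 in MLN, most of it Ccr2, which ILC2 also express. Of 10 dendritic cell markers tested 8 were lower and 1 higher, with a sum of 34.9 and 41.4 CPM in thymus and 113 and 122 in MLN. Cd74, the invariant chain of MHC class II, made up much of that sum, at 6.41 and 9.71 against 43.5 and 43.6 CPM. B and plasma cell markers summed to 77.4 and 84.1 against 200 and 159 CPM, most of it Ighm, at 55.7 and 58.4 against 181 and 142. Neutrophil markers summed to between 1.87 and 2.66 CPM in the 4 libraries, and Ly6g had 0 counts in each. The part of such cells in the levels of Cybb, Fscn1, Itgax or the chemokines was not tested.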

How the data were processed

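Messenger RNA of sorted ILC2 was sequenced from stranded libraries, per the labels' protocols. Each deposited file gives, for 1 library, a raw count of reads per Ensembl gene (37991 genes), with no normalization by the authors. HTSeq 0.5.3p9 and the builds mm9 and NCBIM37 appear in the submitters' processing notes, with no role stated. For the strand option, aligner and annotation release nothing is given in the sources used here, so overlapping genes on opposite strands, and near-identical copies such as the Klra and Serpina3 genes, are uncertain.

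Symbols came from GENCODE M21 by Ensembl identifier (32919 matched, 5072 did not). That annotation is on a later build than the counts, and none of its coordinates were used. Promoter sequences came from RefSeq on GRCm38.p6.

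Genes were filtered with filterByExpr over all 6 libraries, which left 16231 of 23871 with a count. Some passed through the cultured libraries alone, such as Mcpt1 with 0 counts in all 4 organ libraries. With the 4 organ libraries alone 15241 genes were tested. In edgeR 4.0.16 (R 4.3.3) a mean was fitted for each of the 3 groups over all 6 libraries, without a block and with TMM factors. The quasi-likelihood F test was two-sided, and p-values were adjusted by Benjamini-Hochberg across the genes tested. The fit had 3 residual degrees of freedom, and a permutation of 2 against 2 libraries cannot go below p = 0.333. The error after ± is the standard error of the log2 fold change, taken as its size divided by the square root of F, and it can be too small where a group has few counts. Adjusted p values come from this test unless DESeq2 1.42.0 is named. The 2 libraries of each group differed by more than counting noise and were counted as 2. Counting intervals are exact at 95% and, like the floor of 3 counts, cover counting error only. The fit was tested on simulated data.

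The 47 gene lists, the comparison and its classes were chosen with earlier results of these data known, and 32 lists form the 4 classes. Named genes are the 10 highest and 10 lowest over all genes (called, at 10 CPM or more, no overlap, outside the 3 lists set apart). From each list of the classes come up to 3 at each end (called, 5 CPM or more, no overlap) and the 2 most abundant. Added are the 2 most abundant of each list of other cell types, and always Gata3, Rora, Id1, Il5, Il13, Il7r, Il1rl1 and Thy1. For genes named at an end, no overlap between the organs is thus a condition of the choice and not a result. ILC2 markers were named to check the sort. Some genes that the rule names are not reported here. The 14 alternatives were DESeq2, RLE factors, no scaling beyond library totals, no low-count filter, 5 CPM in at least 2 of the 4 organ libraries, a fit to those 4 libraries, a replicate block, a test against a 2-fold change, and each of the 6 libraries left out.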

Additional observations from a re-analysis of the deposited data

How the results depend on the processing

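No called gene among those named by the rule changed direction under any of the 14 alternatives. Across RLE factors, library totals alone, no filter, the 4 organ libraries alone and DESeq2, every count of called genes in the 4 classes and over all genes stayed within 1.5 times its value, and genes higher in thymus made up 49.7% to 58.4% of the called genes (53.5% in the report). The test against a 2-fold change called 897 genes higher and 401 lower, among them 37 and 38 surface receptors, 28 and 27 secreted factors, 34 and 3 metabolic genes and 21 and 11 transcription factors. It tests a larger effect and so calls fewer genes. The filter of 5 CPM, which tests 10601 genes, left 61 surface receptors higher and 45 secreted factors higher and 35 lower.

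With each library left out in turn, 3365 to 3948 genes were higher and 2783 to 3293 lower. The ranges were 87 to 93 and 105 to 110 for surface receptors, 63 to 72 and 54 to 65 for secreted factors, 196 to 226 and 66 to 76 for metabolic genes, and 63 to 70 and 86 to 95 for transcription factors. Of the 264 genes named by the rule, DESeq2 lost the call of 6 and leaving out fresh MLN replicate 2 that of 16, the most of any library.

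The labels number the libraries 1 and 2 in each group, with no statement that a number marks a shared animal or day. Deviations of same-numbered libraries correlated at 0.321 between thymus and fresh MLN, 0.142 between thymus and cultured MLN and 0.0147 between fresh and cultured MLN. With 2 libraries a group and no such statement they were not taken as pairs. A replicate block called 8049 genes, 4274 higher and 3775 lower, and lost the call of 0 of the 264 named genes. At these depths 1 count is a small fraction of 1 CPM, and genes with few counts in an organ (Fads2, Fads3, Id3 and Cxcl11) have wide intervals.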
